A study of Mus musculus with 12 samples.

Results

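The 7 tight junction genes described here were Cldn1, Cldn3, Cldn4, Cldn7, Ocln, Tjp1 and F11r, taken with every probe set to which the array's platform annotation gives one of these symbols. They had 14 of the 22690 probe sets on the array and made up 7 of 12393 genes with a symbol of their own. Each of the 7 genes was measured. Cldn1 and Cldn3 had 4 probe sets each, F11r had 2, and Cldn4, Cldn7, Ocln and Tjp1 had 1 each. The 12 arrays held 5 primary keratinocyte cultures, 5 samples of skin from mice aged 30 days and 2 samples of newborn skin. All cultures came from newborn mice, and each pooled the cells of 5 mice of one genotype and was grown for up to 3 days in low-calcium medium with no passage. Replicates 1 and 2 of the cultures and all 30-day skin carried a mixed C57, DBA and FVB background, and replicates 3 to 5 of the cultures and both samples of newborn skin were FVB. Age and strain therefore cannot be told apart within skin, and the labels give no mutation or treatment other than culture. The labels do not state whether each skin sample was a different animal, and the p-values therefore reflect variation among these samples that could be technical.

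Tight junctions are belts of membrane proteins that seal the space between neighbouring epithelial cells. Claudins form the paracellular strands, occludin and the junctional adhesion molecule encoded by F11r lie beside them in the membrane, and Tjp1 (ZO-1) is the scaffold that ties these proteins to actin. In epidermis functional tight junctions lie in the granular layer, below the cornified layer, and mice without Cldn1 die soon after birth from loss of water through the skin. Keratinocytes kept in low calcium stay largely undifferentiated and do not assemble such junctions, whereas raised calcium starts both adhesion and differentiation.

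The values were log2 RMA intensities, a scale on which 1 unit is a doubling. Precision is limited by the number of arrays, since RMA gives neither counts nor detection calls, and the level of one probe set was not set against that of another. Each gene was counted through its leading probe set, the one with the highest mean over the 12 arrays. The cultures and skin samples were checked against marker genes. The mean of 12 keratinocyte genes (the keratinocyte panel, among them Krt5, Krt14, Cdh1 and Dsp) was 10.33 to 10.62 in cultures, 10.09 to 10.32 in 30-day skin and 10.07 in both samples of newborn skin. The mean of 10 dermal fibroblast genes was 5.55 to 6.03 in cultures, 10.12 to 10.65 in 30-day skin and 10.66 to 10.72 in newborn skin, and array medians lay between 5.86 and 6.01. In bulk RNA of this kind fewer cells of a type and less RNA per cell cannot be told apart. Replicate 1 of 30-day skin stood apart, with a gap between the 3′ and 5′ actin probe sets of 1.74 against 0.67 to 0.82 in the other 4 samples of its group, and it was the lowest sample of its group for 5 of the 7 leading probe sets.

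Cldn4 and Cldn7 were higher in cultured keratinocytes than in skin of either age, and Cldn3 and F11r were higher as well by smaller amounts. Cldn1 and Ocln overlapped between culture and 30-day skin. Against 30-day skin 5 of the 7 genes rose, by a median over the 7 of 0.57 against 0.03 over all probe sets tested, and the other 2 did not pass the test. Of all probe sets 25.1% were called higher in this comparison and 18.2% lower (43.3% either way). In 4 of the 7 genes the lowest culture lay above the highest 30-day sample, which held for 18.6% of all probe sets.

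Cldn4 encodes a claudin that seals the paracellular path and, with Cldn3, serves as a receptor for the enterotoxin of Clostridium perfringens. Its probe set read 11.31, 11.17, 10.51, 10.52 and 10.37 in cultures 1 to 5, against 8.41, 9.13, 9.29, 9.51 and 9.29 in 30-day skin and 8.03 and 7.95 in newborn skin. All 5 cultures lay above all 7 skin samples, and both newborn samples lay below all 5 of 30-day skin. The difference was 1.65 ± 0.22 (SE) against 30-day skin, a 3.14-fold higher level (adjusted p = 2.97e-05), and 2.78 ± 0.29 against newborn skin, a 6.89-fold higher level (adjusted p = 5.05e-06). Cldn4 had the widest range of group means of the 7 genes, and its order was mixed-strain culture, FVB culture, 30-day skin and newborn skin, with no overlap between neighbours. The gap between 3′ and 5′ actin probe sets tended to rise along that order, with some overlap. It was 0.21 and 0.35 in mixed-strain cultures and 0.56 to 0.74 in FVB cultures. In 30-day skin it was 0.67 to 0.82, or 1.74 in replicate 1, and in newborn skin 0.99 and 1.14. Its part in the order of Cldn4 or in other differences between the groups was not tested.

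Cldn7 encodes a claudin found along the lateral membrane of many epithelia. It read 7.24, 7.26, 7.07, 7.08 and 6.98 in cultures, against 5.14, 4.82, 4.89, 5.07 and 4.67 in 30-day skin and 5.28 and 4.97 in newborn skin. The cultures lay close together and all above skin, and every skin value was below the median of its array, so the skin level is weakly measured. The difference was 2.21 ± 0.10 (SE) against 30-day skin (4.62-fold, adjusted p = 1.14e-09) and 2.002 ± 0.14 against newborn skin (4.005-fold, adjusted p = 9.48e-08). The 2 ages of skin overlapped.

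Cldn3 and Cldn4 are neighbours on mouse chromosome 5, on opposite strands and with 0 annotated genes between them in the RefSeq table. The bases before the RefSeq start of each are shown for these 3 claudins because they were the members with the largest differences between culture and skin. The sequences run 5′ to 3′ over 250 bases of build GRCm38.p6 on the strand given, and capitals mark the E-box CAGGTG, the site of Snail and Zeb factors, and the AP-1 site TGANTCA, each on either strand.
Cldn4 chr5:134946935-134947184 (-): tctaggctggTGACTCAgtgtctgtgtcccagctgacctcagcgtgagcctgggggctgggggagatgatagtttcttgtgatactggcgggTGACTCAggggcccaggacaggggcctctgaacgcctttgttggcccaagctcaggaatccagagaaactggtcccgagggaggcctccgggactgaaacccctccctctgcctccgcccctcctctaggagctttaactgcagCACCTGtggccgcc
Cldn3 chr5:134985964-134986213 (+): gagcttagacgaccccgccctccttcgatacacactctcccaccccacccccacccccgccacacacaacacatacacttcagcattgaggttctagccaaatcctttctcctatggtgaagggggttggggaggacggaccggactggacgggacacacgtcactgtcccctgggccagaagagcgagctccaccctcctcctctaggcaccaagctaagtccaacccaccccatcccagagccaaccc
Cldn7 chr11:69964529-69964778 (+): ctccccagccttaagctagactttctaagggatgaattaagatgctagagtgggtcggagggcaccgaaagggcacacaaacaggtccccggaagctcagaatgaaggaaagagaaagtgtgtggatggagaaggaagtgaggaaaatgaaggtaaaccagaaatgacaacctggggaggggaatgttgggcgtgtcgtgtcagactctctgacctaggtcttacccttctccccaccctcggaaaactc
Cldn7 downstream start chr11:69965171-69965420 (+): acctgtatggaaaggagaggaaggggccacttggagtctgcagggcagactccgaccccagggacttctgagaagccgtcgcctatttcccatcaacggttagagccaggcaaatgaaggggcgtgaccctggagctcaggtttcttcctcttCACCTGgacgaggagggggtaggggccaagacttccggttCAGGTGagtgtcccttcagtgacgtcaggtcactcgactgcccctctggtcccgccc
The Cldn4 stretch holds AP-1 sites that begin 240 and 158 bases before the start and an E-box that begins 14 bases before it. The downstream Cldn7 start has E-boxes that begin 97 and 57 bases before it, and the printed stretch of Cldn3 and that of the upstream Cldn7 start hold neither motif. In windows that also include 50 bases after the start, 5 of the 7 genes had an E-box at a start (6 of their 9 windows), against 20.3% of 32544 mouse promoters of the same length, and 2 of the 7 (Cldn4 and F11r) had an AP-1 site (2 of 9 windows), against 7.79% of promoters. The Ocln windows overlap and share an E-box, which is counted in each. Cldn7 and Ocln could match at either of their starts, whereas the promoter shares count single windows. The GRHL site AACCGGTT was found in 0 of the 7 and in 0.148% of promoters. A match describes letters only, and binding was not measured here.

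Cldn3, a sealing claudin of many simple epithelia, read 10.01, 10.15, 8.96, 8.69 and 9.19 in cultures by its leading probe set, against 7.81, 8.22, 8.44, 8.43 and 8.40 in 30-day skin and 8.15 and 8.14 in newborn skin. Cultures 1 and 2, of mixed strain, lay above the 3 FVB cultures, and all 5 lay above skin. The difference was 1.14 ± 0.25 (SE) against 30-day skin (2.20-fold, adjusted p = 0.00198) and 1.25 ± 0.33 against newborn skin (2.38-fold, adjusted p = 0.00954). The other 3 Cldn3 probe sets gave 1.46 to 1.48 against 30-day skin and 1.66 to 1.69 against newborn skin, and each of the 4 separated all cultures from all skin. The names of 1451701_x_at and 1460569_x_at, among these, mark probes that can match other sequences. The call of the leading probe set against newborn skin was lost without newborn replicate 1 (adjusted p = 0.0703) and without newborn replicate 2 (adjusted p = 0.0712). That of 1426332_a_at was lost without newborn replicate 1 (adjusted p = 0.104), and those of 1451701_x_at and 1460569_x_at held with any 1 sample left out.

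**Figure D1:**
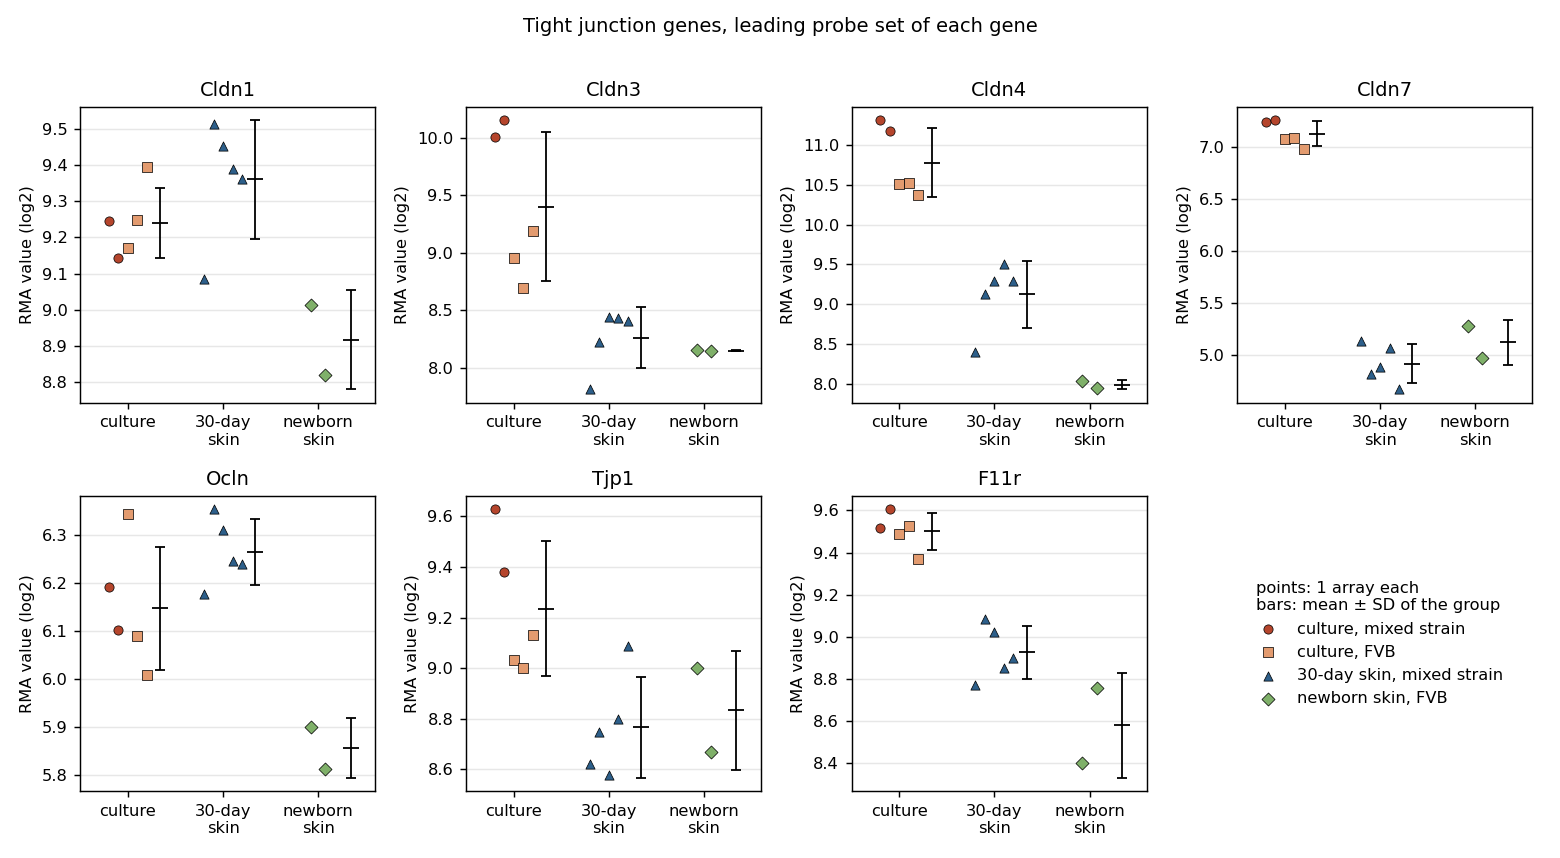
Log2 RMA value of the leading probe set of each of the 7 genes (y axis, 1 panel per gene with its own scale) in cultures, 30-day skin and newborn skin, with 1 point per array, colour and shape for group and strain, and bars for mean ± SD. The 5 cultures lie above all 7 skin samples for Cldn3, Cldn4, Cldn7 and F11r, and for Cldn3 and Cldn4 the mixed-strain cultures lie above the FVB cultures.

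Cldn1, the claudin that epidermal barrier function depends on in mice, was not separated between culture and 30-day skin. Its leading probe set read 9.25, 9.14, 9.17, 9.25 and 9.39 in cultures, against 9.09, 9.51, 9.45, 9.39 and 9.36 in 30-day skin and 9.01 and 8.82 in newborn skin. The cultures fell inside the range of 30-day skin, and both newborn samples lay below every other array. The lower end of that range was replicate 1 of 30-day skin. The other 4 samples read 9.36 to 9.51, above cultures 1 to 4 but not culture 5. Without replicate 1 the difference was -0.19, which did not pass either. The difference was -0.12 ± 0.09 (SE) against 30-day skin, with a 95% interval of -0.32 to 0.08 (adjusted p = 0.326), and 0.32 ± 0.12 against newborn skin, which missed the threshold (adjusted p = 0.0579).

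Another Cldn1 probe set, 1450014_at, had a different pattern. It read 8.63, 8.42, 7.58, 7.34 and 7.39 in cultures, against 6.14, 7.79, 8.17, 7.82 and 7.92 in 30-day skin and 6.54 and 6.72 in newborn skin. The mixed-strain cultures were highest, the FVB cultures lay below 4 of the 5 samples of 30-day skin, and replicate 1 of 30-day skin was the lowest of all 12 arrays. Its difference was 0.30 ± 0.36 (SE) against 30-day skin (adjusted p = 0.534), or -0.05 without replicate 1 of 30-day skin, and 1.24 against newborn skin (adjusted p = 0.0611). The remaining Cldn1 probe sets stayed low in every array, 4.93 to 5.35 for 1438851_x_at and 3.33 to 3.68 for 1438850_at, and no difference is given for them.

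**Figure D2:**
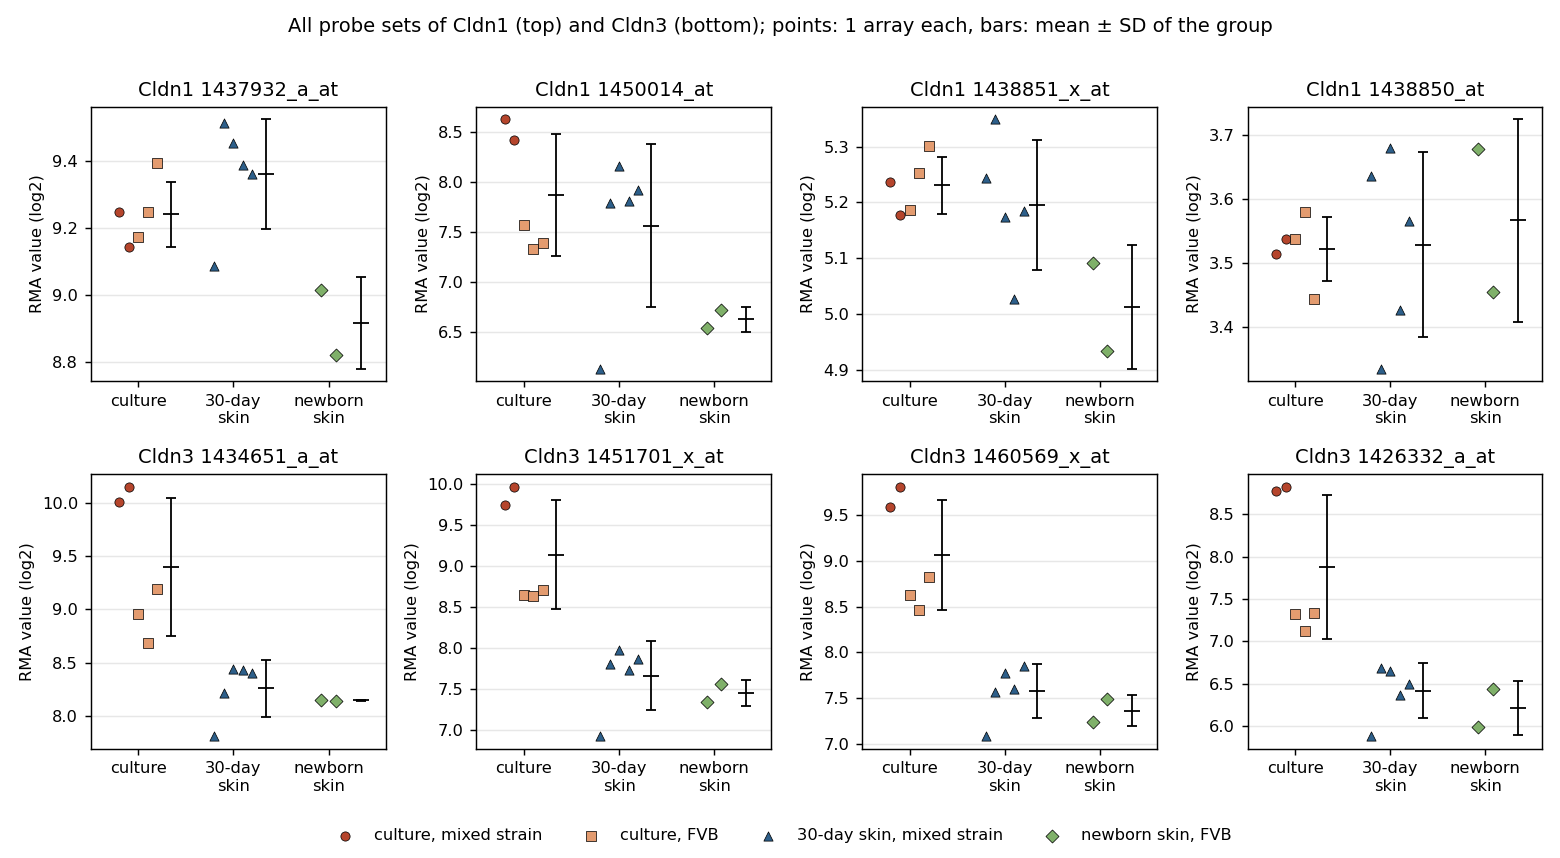
Log2 RMA values (y axis) of all 4 probe sets of Cldn1 (top row) and of Cldn3 (bottom row) in cultures, 30-day skin and newborn skin, with 1 point per array and bars for mean ± SD of each group. The 4 Cldn3 probe sets share 1 pattern with mixed-strain cultures highest, whereas the 4 Cldn1 probe sets do not share one, and the 30-day sample at 6.14 in 1450014_at is replicate 1.

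Ocln, which encodes the membrane protein occludin, had small differences. It read 6.19, 6.10, 6.34, 6.09 and 6.01 in cultures, against 6.18, 6.35, 6.31, 6.25 and 6.24 in 30-day skin and 5.90 and 5.81 in newborn skin. The cultures overlapped 30-day skin, and newborn skin lay just below both. The difference was -0.12 ± 0.08 (SE) against 30-day skin, with a 95% interval of -0.29 to 0.05 (adjusted p = 0.255). Against newborn skin it was 0.29 ± 0.10 (adjusted p = 0.0467), a call lost without 1 of cultures 1, 2 or 3 or of either newborn sample (adjusted p of 0.0592 to 0.269).

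F11r encodes junctional adhesion molecule A, an immunoglobulin-fold protein that binds its counterpart on the next cell. It read 9.52, 9.61, 9.49, 9.52 and 9.37 in cultures, against 8.77, 9.08, 9.02, 8.85 and 8.90 in 30-day skin and 8.40 and 8.76 in newborn skin. Every culture lay above every skin sample, and the lowest 30-day sample, at 8.77, was next to the higher newborn sample, at 8.76. The difference was 0.57 ± 0.09 (SE) against 30-day skin (1.49-fold, adjusted p = 0.000147) and 0.92 ± 0.12 against newborn skin (1.89-fold, adjusted p = 4.4e-05). A dim F11r probe set, 1436374_x_at, stayed between 5.46 and 6.09 in all arrays and is given as a level only.

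Tjp1, the scaffold ZO-1, was modestly higher in culture than in 30-day skin. It read 9.63, 9.38, 9.03, 8.999 and 9.13 in cultures, against 8.62, 8.75, 8.58, 8.80 and 9.09 in 30-day skin and 9.0005 and 8.67 in newborn skin. The mixed-strain cultures lay above all skin samples, whereas the FVB cultures overlapped 30-day skin. The difference was 0.47 ± 0.14 (SE) against 30-day skin (1.38-fold, adjusted p = 0.0124) and 0.40 ± 0.18 against newborn skin (adjusted p = 0.112). The first of these no longer passed when arrays that resembled each other closely were averaged (0.42, adjusted p = 0.0535).

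Against newborn skin 5 of the 7 genes rose (Cldn3, Cldn4, Cldn7, Ocln and F11r), where 17.6% of all probe sets were called higher, 14.7% lower and 32.3% either way. The median of the 7 genes was 0.92, against 0.04 over all probe sets. Groups did not overlap for 6 of the 7, with the cultures higher, which held for 25.5% of probe sets. Of the 5 calls, those of Cldn3 and Ocln were the ones lost without either newborn sample, which left 3. The comparisons of culture with the 2 ages of skin use the same 5 cultures and are not independent.

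**Figure D3:**
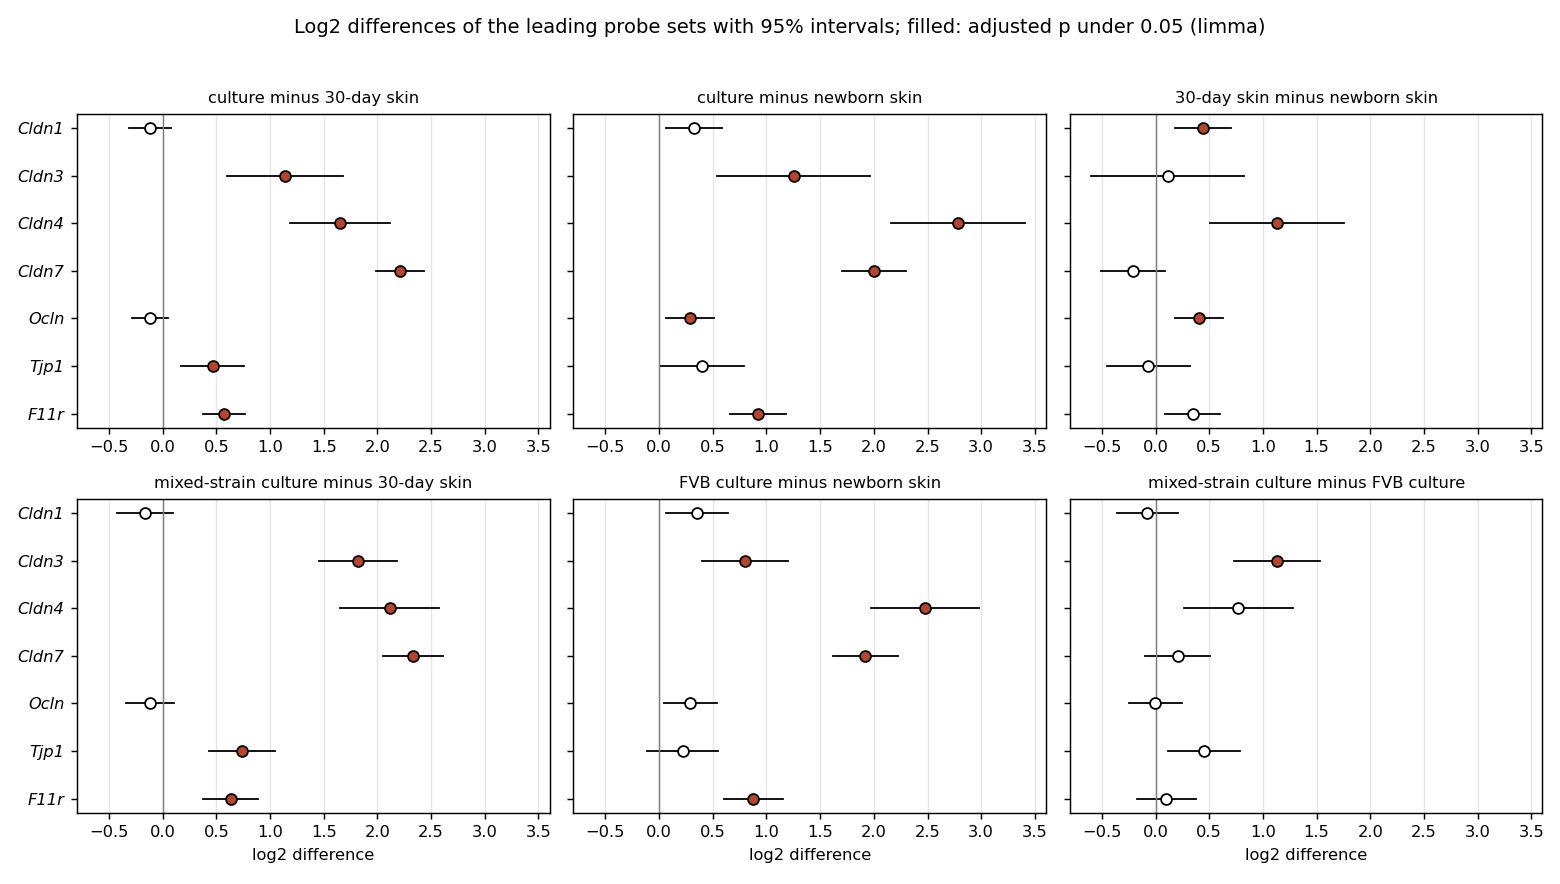
Log2 difference (x axis) of the leading probe set of each gene (rows) with its 95% interval in 6 comparisons (panels), filled where the adjusted p is under 0.05 in limma. Cldn4 and Cldn7 have the largest differences between culture and skin in both strains and against both ages, and Cldn3 is the filled point between the 2 kinds of culture.

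Since whole skin holds dermis, muscle and hair follicles beside epidermis, the 7 genes were also set against the keratinocyte panel of the same array. Fibroblast markers were lower in culture than in 30-day skin for 10 of 10 genes, skeletal muscle markers for 10 of 10, hair follicle markers for 11 of 12, endothelial markers for 9 of 10 and adipocyte markers for 6 of 6. Their part in the differences of the 7 genes was not tested beyond this centring. Of the 12 panel genes 5 were themselves called higher in culture than in 30-day skin and 4 lower. Against newborn skin 5 of the 12 were called higher and 0 lower, with a panel median of 0.39. Of all probe sets 17.6% were higher and 14.7% lower there. FVB cultures against newborn skin gave the same panel counts, with a median of 0.50. Centring on the panel moved the median of all probe sets to -0.23 against 30-day skin and -0.38 against newborn skin.

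Relative to the panel, Cldn3, Cldn4, Cldn7 and F11r were higher against 30-day skin, 4 of the 7 where 13.6% of all probe sets were called higher, and Cldn4, Cldn7 and F11r against newborn skin, 3 of the 7 where 6.35% were. Cldn4 was 1.39 ± 0.23 (SE) higher in culture than in 30-day skin and 2.36 ± 0.30 higher than in newborn skin, Cldn7 1.95 ± 0.14 and 1.58 ± 0.19, and F11r 0.31 ± 0.11 and 0.50 ± 0.15. The leading Cldn3 probe set was higher by 0.88 ± 0.27 against 30-day skin (adjusted p = 0.0139) but by 0.83 ± 0.36 without passing against newborn skin (adjusted p = 0.0594), where the other 3 Cldn3 probe sets passed (1.24 to 1.27, adjusted p of 0.00723 to 0.0303). By leading probe set Cldn1 and Ocln became lower in culture than in 30-day skin on this scale, at -0.38 ± 0.10 (adjusted p = 0.00421) and -0.38 ± 0.11 (adjusted p = 0.00882), and 38.8% of all probe sets were lower there. The Cldn1 probe set 1450014_at did not pass there (0.04, adjusted p = 0.918, limma). For mixed-strain cultures alone against 30-day skin neither leading probe set passed on this scale. Cldn1 was then at -0.29 (adjusted p = 0.0571) and Ocln at -0.25 (adjusted p = 0.146). With all cultures Tjp1 did not pass against 30-day skin (0.21, adjusted p = 0.297) or newborn skin (-0.02, adjusted p = 0.944).

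Array by array, Cldn1 minus the panel mean was -1.37 to -1.08 in cultures, -1.004 to -0.81 in 30-day skin and -1.25 and -1.05 in newborn skin, so cultures and 30-day skin no longer overlapped. Cldn4 minus the panel mean was -0.23 to 0.98 in cultures, -1.68 to -0.70 in 30-day skin and -2.12 and -2.03 in newborn skin, in the order seen before centring.

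**Figure D4:**
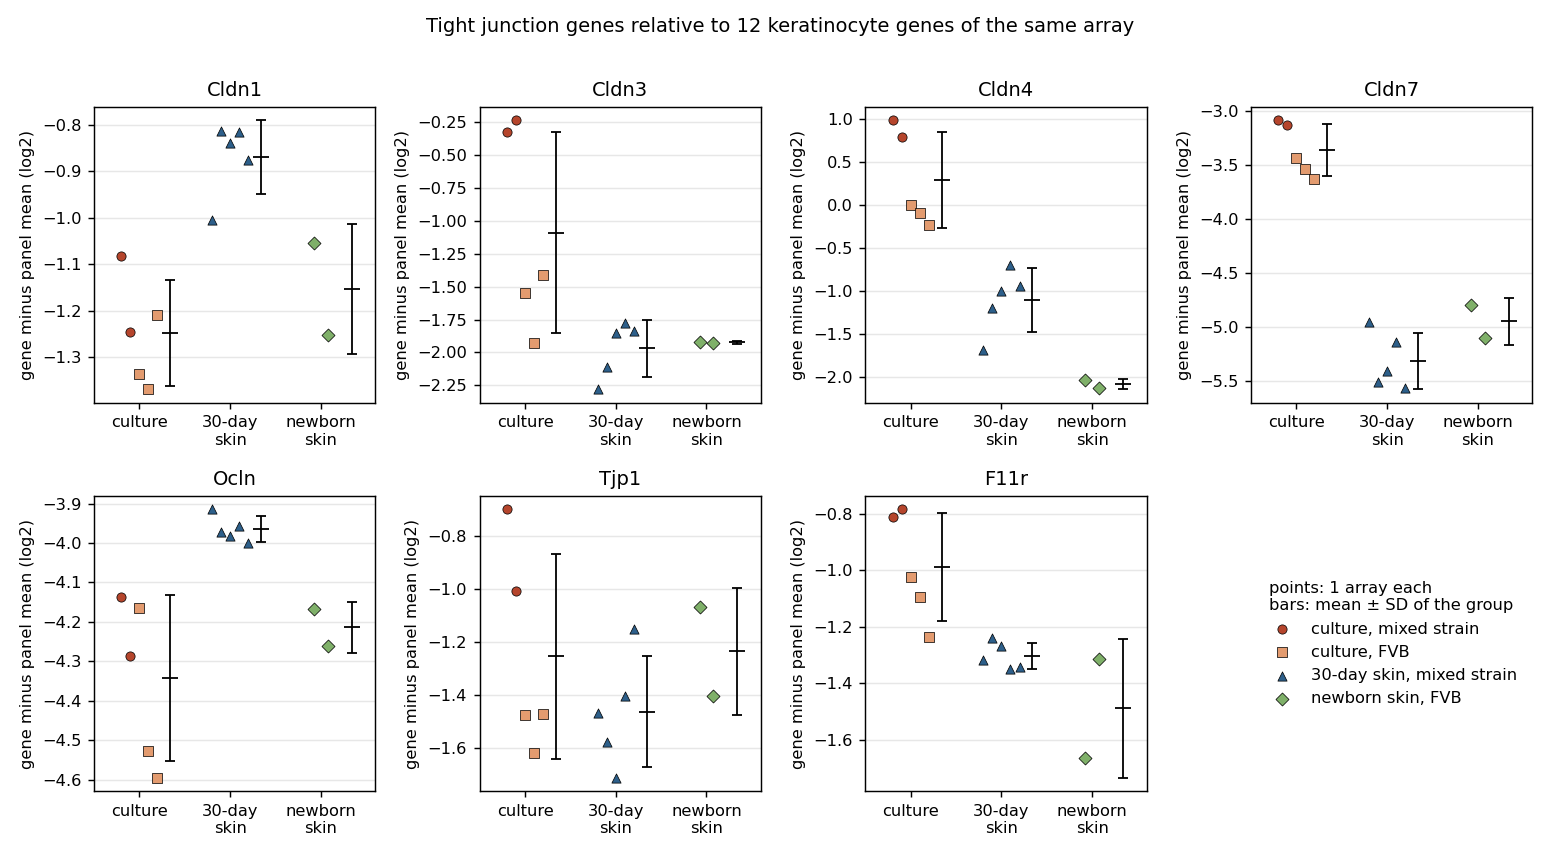
Leading probe set of each gene minus the mean of 12 keratinocyte genes on the same array (y axis, log2), in cultures, 30-day skin and newborn skin, with 1 point per array and bars for mean ± SD. On this scale Cldn1 and Ocln lie lower in cultures than in 30-day skin, and Cldn4 and Cldn7 remain higher in every culture than in any skin sample.

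Setting each kind of culture against skin of its own strain label separated strain from culture as far as the design allows. Mixed-strain cultures were higher than 30-day skin, of the same strain label but another age, for Cldn3 (1.82 ± 0.17, SE), Cldn4 (2.12 ± 0.21), Cldn7 (2.33 ± 0.13), F11r (0.64 ± 0.12) and Tjp1 (0.74 ± 0.14), which is 5 of the 7 genes where 21.4% of all probe sets were called higher. Groups did not overlap for the same 5, which held for 27.6% of probe sets. FVB cultures were higher than newborn skin, of the same strain and age, for Cldn3 (0.80 ± 0.18, adjusted p = 0.00389), Cldn4 (2.47 ± 0.23), Cldn7 (1.92 ± 0.14) and F11r (0.88 ± 0.13), which is 4 of the 7 where 19.6% were called higher. Groups did not overlap for 6 of the 7 there, with the cultures higher, against 32.8% of probe sets. Cldn1 (0.35, adjusted p = 0.0539), Ocln (0.29, adjusted p = 0.0669) and Tjp1 (0.22, adjusted p = 0.315) did not pass in the FVB comparison. Relative to the panel the leading Cldn3 probe set no longer passed there (0.29 ± 0.17, adjusted p = 0.143), whereas its other 3 probe sets did (0.54 to 0.76, adjusted p of 0.00188 to 0.0163), and Cldn4 (1.97), Cldn7 (1.41) and F11r (0.37) passed, 3 of the 7 by leading probe set where 6.11% of probe sets were called higher.

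Cldn3 differed between the 2 kinds of culture themselves. By the leading probe set the mixed-strain cultures read 10.01 and 10.15, against 8.96, 8.69 and 9.19 in FVB cultures, a difference of 1.13 ± 0.18 (SE, 2.19-fold, adjusted p = 0.0023). The other 3 Cldn3 probe sets gave 1.06 to 1.53, and each passed. The call of 1451701_x_at was lost without culture 1 (adjusted p = 0.0543) or culture 2 (adjusted p = 0.088), and that of 1460569_x_at without culture 2 (adjusted p = 0.0686). Cldn3 was the 1 gene of 7 called, where 3.91% of all probe sets were called higher and 5.3% lower (9.22% either way), and the call was lost when close arrays were averaged, which counts both mixed-strain cultures as 1 sample (adjusted p = 0.114).

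Cldn4 and Tjp1 were also higher in both mixed-strain cultures than in all 3 FVB cultures, by 0.77 ± 0.23 (SE, adjusted p = 0.0558) and 0.45 ± 0.15 (adjusted p = 0.0888), without passing. Relative to the panel both passed, at 0.99 (adjusted p = 0.00713) and 0.67 (adjusted p = 0.0159), on a scale where the median of all probe sets moved to 0.22 and 15.1% were called higher. Groups did not overlap for Cldn3, Cldn4, Cldn7 and Tjp1, with mixed-strain cultures higher, against 22% of all probe sets. Cldn1 (-0.08), Ocln (-0.0007) and F11r (0.10) overlapped, with 95% intervals of -0.36 to 0.21, -0.25 to 0.25 and -0.18 to 0.38.

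Other markers moved with strain beside Cldn3. The mean of 5 melanocyte genes was 9.18 and 9.22 in mixed-strain cultures, against 7.42 to 7.54 in FVB cultures, with 4 of 5 called higher. The mean of the 10 fibroblast markers was 6.03 in both mixed-strain cultures, against 5.55 to 5.60 in FVB cultures, with 4 of 10 called higher, and the keratinocyte panel was 10.33 and 10.39 against 10.51 to 10.62. The gap between 3′ and 5′ actin probe sets was 0.21 and 0.35 in mixed-strain cultures, against 0.56 to 0.74 in FVB cultures. The mean of 22 genes listed for the granular and cornified layers was 6.86 and 6.96 in mixed-strain cultures. It was 7.27 to 7.42 in FVB cultures, with 5 of the 22 called lower in mixed-strain cultures and 0 higher. The part of these markers and of the actin gap in the Cldn3 difference was not tested. The difference between the strain-matched culture effects, mixed-strain culture against 30-day skin less FVB culture against newborn skin, was 1.02 ± 0.25 (SE) for Cldn3 (adjusted p = 0.0225, where 8.48% of all probe sets passed) and did not pass for the other 6 genes by leading probe set, but age and strain cannot be told apart in it. Relative to the panel Tjp1 (0.90, adjusted p = 0.0123) and Cldn7 (0.79, adjusted p = 0.026) passed beside Cldn3 (1.40, adjusted p = 0.000964). That centring raises this difference by the same amount for every probe set. Before it Tjp1 was at 0.52 (adjusted p = 0.163) and Cldn7 at 0.41 (adjusted p = 0.238). No share of all probe sets passing was computed on this scale or without replicate 1 of 30-day skin. Without replicate 1 of 30-day skin Cldn1 (-0.59, adjusted p = 0.0189) and Cldn4 (-0.54, adjusted p = 0.0455) passed as well, and with close arrays averaged the Cldn3 call was lost (adjusted p = 0.307).

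Between the 2 ages of skin 3 members passed. Cldn4 was 1.13 ± 0.29 (SE) higher in 30-day than in newborn skin (2.19-fold, adjusted p = 0.0206), Cldn1 0.44 ± 0.12 (1.36-fold, adjusted p = 0.0306) and Ocln 0.41 ± 0.10 (1.33-fold, adjusted p = 0.0207). These were 3 of the 7 genes, where 4.75% of all probe sets were called higher and 7.36% lower (12.1% either way). F11r differed by 0.35 ± 0.12 (adjusted p = 0.0821), and Cldn3 (0.11), Cldn7 (-0.21) and Tjp1 (-0.07) did not pass, with 95% intervals of -0.60 to 0.83, -0.50 to 0.09 and -0.46 to 0.32. Groups did not overlap for 4 of the 7 (Cldn1, Cldn4, Ocln and F11r), 30-day skin being higher, against 14.6% of all probe sets. All 3 calls were lost without newborn replicate 1 (adjusted p of 0.124 for Cldn4, 0.084 for Cldn1 and 0.0978 for Ocln) and without newborn replicate 2 (0.178, 0.335 and 0.219), and that of Cldn1 also without any 1 of replicates 2 to 5 of 30-day skin (0.0555 to 0.0592). The 3 calls were also lost with strain as a covariate, which turns this comparison into the strain-matched difference. Cldn4 was then 0.36 (adjusted p = 0.588), Cldn1 0.52 (adjusted p = 0.0992) and Ocln 0.41 (adjusted p = 0.138). With the replicate block the adjusted p were 0.0872, 0.181 and 0.0881. Relative to the panel Cldn4 alone passed of the 7 leading probe sets (0.97, adjusted p = 0.0418), where 2.36% of all probe sets were called higher. Without replicate 1 of 30-day skin F11r passed too (0.38, adjusted p = 0.0476), as did the Cldn1 probe set 1450014_at (1.29, adjusted p = 0.0151, against 0.94 and adjusted p = 0.243 with it).

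Other genes of the junction were read as lists of relatives of the 7. Their counts stand against the shares of all probe sets called higher and lower, which were 25.1% and 18.2% against 30-day skin (13.6% and 38.8% with arrays centred on the panel) and 17.6% and 14.7% against newborn skin (6.35% and 46.7% with that centring). Several genes named from the lists were dim, and differences that rest on such levels are weakly measured. Cldn2, Cldn15, Jam2, Jam3 and Pard6b had every group mean below 5.86, the lowest array median. Cldn5, Cldn8, Cldn10, Esam, Tjp3, Mylk, Zeb1 and Zeb2 were among those below it in culture. Of the genes that rose in culture, Prkcz and Marveld2 were among those below it in skin of both ages, and Mpp5 was below it in newborn skin. Of 21 other claudin genes 14 were measured, and 6 of them fell in culture against 30-day skin and 1 rose, with a median of -0.18, and with arrays centred on the panel 8 fell. Cldn8, known from renal collecting ducts, fell by 2.07 ± 0.14 (SE), Cldn10 by 1.42 ± 0.18 and the endothelial claudin gene Cldn5 by 0.89 ± 0.10, and Cldn2 rose by 0.39 ± 0.09, a call lost under that centring (0.13, adjusted p = 0.329). Against newborn skin 3 of the 14 fell, Cldn5 by 2.06, Cldn8 by 1.22 and Cldn15 by 0.62, a share near that of all probe sets, and 10 fell with arrays centred on the panel. The mean of the 10 endothelial markers was 5.10 to 5.32 in cultures, 6.01 to 6.15 in 30-day skin and 6.55 to 6.58 in newborn skin, and its part in the Cldn5 difference was not tested.

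Of 14 other transmembrane junction proteins 12 were measured, and against 30-day skin 4 rose and 4 fell, or 2 and 6 with arrays centred on the panel, where the rising shares are near those of all probe sets. Epcam, an adhesion molecule that binds and stabilises Cldn7 in other epithelia, rose by 0.97 ± 0.23 (SE), Cxadr, the coxsackie and adenovirus receptor of tight junctions, by 0.81 ± 0.12, and Marveld2 (tricellulin), of tricellular contacts, by 0.47 ± 0.09, the last a call lost under that centring (0.21, adjusted p = 0.127). With strain as a covariate Epcam did not pass (0.51, adjusted p = 0.102). Esam, an endothelial adhesion molecule, fell by 1.4999 ± 0.11, and Jam2 and Bves by 0.38 each, with the Bves call lost when close arrays were averaged (adjusted p = 0.0659). Against newborn skin Epcam rose by 1.10, Marveld2 by 1.02 and Cxadr by 0.66, and Esam fell by 2.18, Jam3 by 0.76 and Jam2 by 0.57, in all 4 higher and 4 lower, or 2 and 4 with arrays centred on the panel. The Epcam call against newborn skin was lost without either newborn sample (adjusted p = 0.11 and 0.0536). That of Cxadr was lost with panel centring (0.24, adjusted p = 0.195), with the replicate block (adjusted p = 0.0603) and without newborn replicate 2 (adjusted p = 0.0774).

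Of 29 symbols listed as junction scaffolds and polarity genes 17 were matched. The rest, some of them other names of genes already in the list, were not analysed here. Against 30-day skin 9 rose and 2 fell, with a median of 0.27, and with arrays centred on the panel the counts were 6 and 7. Amotl2, of the angiomotin family, rose by 1.37 ± 0.11 (SE), Patj, a partner of the Crumbs complex, by 1.13 ± 0.10 and the polarity kinase gene Prkcz by 1.10 ± 0.10. Cgnl1 (paracingulin) fell by 0.99 ± 0.13 and Tjp3 (ZO-3), a relative of Tjp1, by 0.39 ± 0.13, the Tjp3 call being lost without replicate 1 of 30-day skin, without any 1 of cultures 1 to 4, with median centring, with the replicate block and with close arrays averaged (adjusted p of 0.0552 to 0.0867). Against newborn skin 7 rose and 3 fell, or 6 and 8 on the panel scale, with Amotl2 at 1.56, Patj at 1.55, Mpp5, another Crumbs partner, at 1.32, Mpdz at -1.14, Cgnl1 at -0.99 and Tjp3 at -0.79, the last a call lost without newborn replicate 2 (adjusted p = 0.0847). On the panel scale the share that fell is near that of all probe sets.

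**Figure D5:**
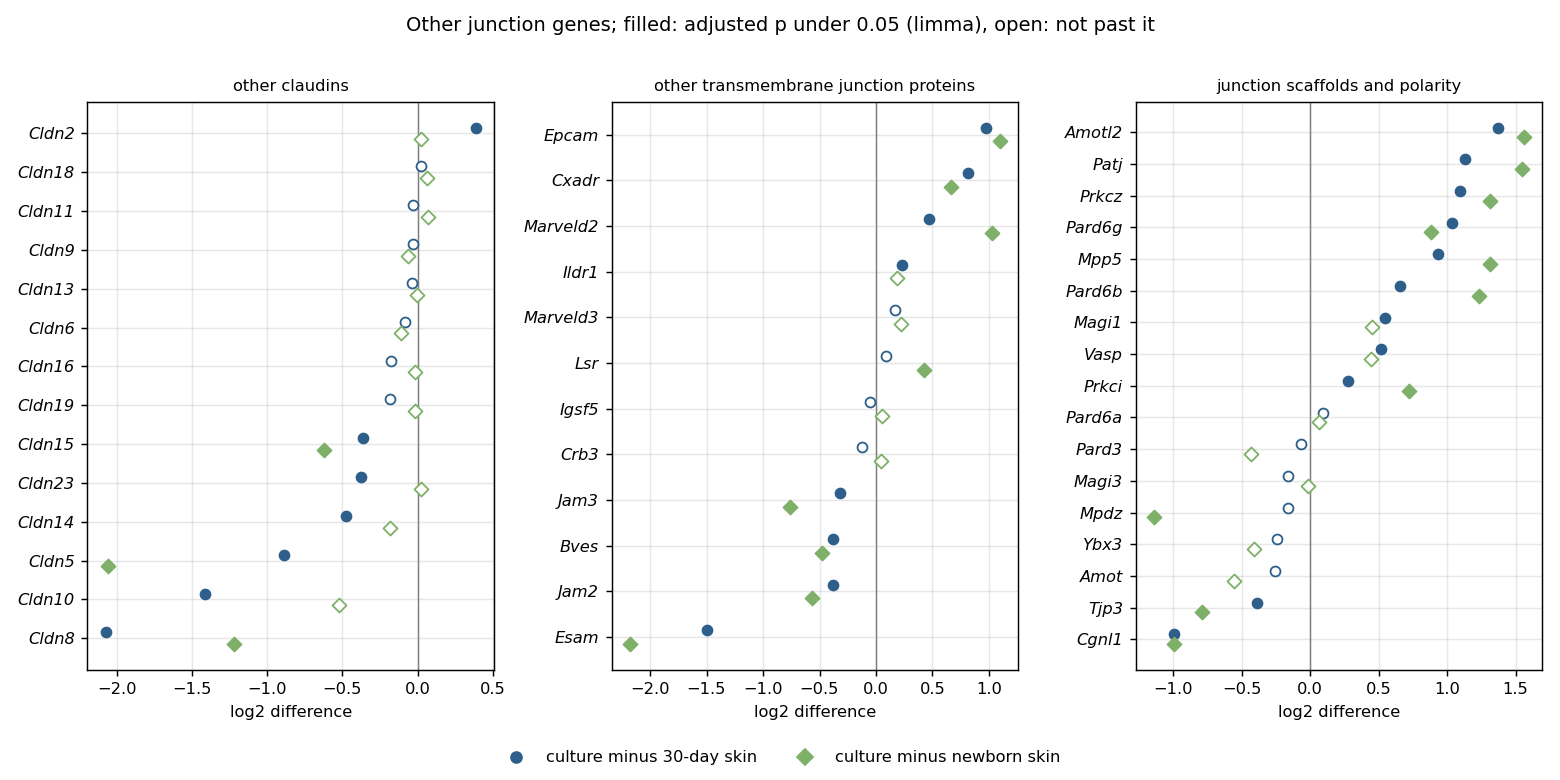
Log2 difference of culture against 30-day skin (circles) and against newborn skin (diamonds) on the x axis for each measured gene of 3 lists (panels, genes as rows), filled where the adjusted p is under 0.05 in limma. Epcam, Cxadr, Amotl2 and Patj lie to the right of 0 in both comparisons, and Esam, Cldn5 and Cldn8 to the left.

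Of 33 junction regulators 31 were measured, and 7 rose and 12 fell against 30-day skin, or 4 and 16 with arrays centred on the panel, where the rising shares are near those of all probe sets. Snai2, a repressor that binds E-boxes and is active in basal keratinocytes, rose by 1.09 ± 0.10 (SE), Arhgef2, whose protein docks at tight junctions, by 0.91 ± 0.18, and the ephrin gene Efna1 by 0.72 ± 0.11. Mylk, the myosin light chain kinase, fell by 2.28 ± 0.11, and the mesenchymal repressor genes Zeb2 and Zeb1 fell by 1.501 ± 0.30 and 1.36 ± 0.15. Against newborn skin 5 rose and 8 fell, or 3 and 18 on the panel scale, with Snai2 at 1.09, Spint2, a protease inhibitor of epithelia, at 0.87, Efna1 at 0.87, Mylk at -2.63, Zeb2 at -2.12 and Zeb1 at -1.76. Zeb1, Zeb2 and Mylk are also active in dermal and muscle cells, whose markers fell in culture as given above, and the part of those cells was not tested.

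Most genes listed for the granular and cornified layers, of which the granular layer holds the epidermal tight junctions, moved the other way from Cldn4 and Cldn7. The list also holds genes of other sites, as named below. Of 22 measured 18 fell in culture and 2 rose against 30-day skin, with a median of -1.47, and with arrays centred on the panel the counts were 19 and 2. Tchh (trichohyalin), of the inner root sheath, fell by 5.45 ± 0.16 (SE), Krt10, the suprabasal keratin, fell by 3.56 ± 0.24 and Lor (loricrin) fell by 3.49 ± 0.11, whereas Sprr1b, a cornified envelope precursor, rose by 2.34 ± 0.35 and Asprv1 by 0.87 ± 0.15. Against newborn skin 17 fell and 1 rose, or 20 and 1 on the panel scale, with Hrnr at -5.55, Lce1a1 at -4.82, Krt10 at -4.77 and Sprr1b at 2.61. Of all probe sets 18.2% fell against 30-day skin and 14.7% against newborn skin, or 38.8% and 46.7% on the panel scale.

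Between the ages of skin 3 of 14 other claudins, 3 of 12 transmembrane proteins, 4 of 17 scaffolds, 5 of 31 regulators and 13 of 22 granular layer genes passed, where 12.1% of all probe sets did. Of the other claudins Cldn10 (0.89) and Cldn8 (0.85) were higher in 30-day skin and Cldn5 (-1.17) lower, of the transmembrane proteins Marveld2 (0.56) was higher and Esam (-0.68) and Jam3 (-0.45) lower, and of the scaffolds Pard6b (0.58), Prkci (0.45) and Patj (0.42) were higher and Mpdz (-0.98) lower. Of the regulators Grhl1 (0.83), Spint1 (0.53) and Epha2 (0.39) were higher and Snai1 (-0.74) and Ephb4 (-0.41) lower, and of the granular list 2 rose and 11 fell, Tchh at 1.25 and Ivl at 1.003 on one side and Hrnr at -2.96, Krt1 at -2.65 and Calm4 at -1.90 on the other. With arrays centred on the panel Cldn8, Marveld2, Pard6b, Prkci, Patj, Grhl1 and Epha2 no longer passed (adjusted p of 0.0552 to 0.277). With strain as a covariate Krt1 (-0.36, adjusted p = 0.324) and Calm4 (-0.46, adjusted p = 0.247) did not pass. Nor did Cldn8, Cldn10, Marveld2, Pard6b, Prkci, Patj, Epha2 and Ephb4 (adjusted p of 0.0661 to 0.377). Of the 20 genes named here 13 lost their call without newborn replicate 1 and also without newborn replicate 2 (adjusted p of 0.0521 to 0.384), and Esam, Prkci and Snai1 lost it without replicate 2 alone of these. Cldn5, Mpdz, Tchh and Hrnr kept it with any 1 sample left out. Ephb4 lost its call in each of the 7 fits that left out 1 sample, Grhl1, Patj and Ivl in 6 and Epha2 in 5. With close arrays averaged, which leaves 1 newborn sample, Cldn5 and Mpdz remained the called genes of the other claudins and of the scaffolds.

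The genes whose profile over the 12 arrays was most like that of a member were named by the root mean square of the difference between the 2 profiles after centring, among 7889 genes. For Cldn3 these were Tnfrsf22 (0.19), Col18a1 (0.21) and Nudcd1 (0.21). For Cldn4 they were Plekhb2 (0.30), Stk26 (0.31) and Mdm2 (0.31), and Cldn3, the neighbour on the chromosome, ranked 108 with 0.61. For Cldn7 they were Slc25a48 (0.18), Vsnl1 (0.20) and Nppb (0.22). Group means of Cldn1, Ocln, Tjp1 and F11r differed by under 1, so no such search was made for them.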

How the data were processed

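RNA of 12 samples was hybridised to Affymetrix mouse arrays, 1 array per sample, and titles gave groups and replicate numbers. Per the submitters' processing notes the deposited values, log2 intensities, were made by RMA, a method that subtracts background, equalises array distributions and combines each probe set's probes. The sources used here do not give its version or settings. Normalising by quantiles assumes like distributions of RNA in all samples, which cultures and whole skin may not meet.

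Of 22690 probe sets 64 controls were left out. The platform annotation gave 1 symbol to 20380 of the other 22626, several to 691 and none to 1555. By gene identifier 20351 matched the RefSeq table (GRCm38.p6), where 0 symbols differed.

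All 22626 probe sets were tested two-sided by lmFit and eBayes of limma 3.58.1 (R 4.3.3), with Benjamini-Hochberg adjustment and a threshold of 0.05. The 3 main comparisons came from a fit of 3 group means, and those by strain from a fit of 4 means. Errors are SE of the fit unless given as SD, and intervals are 95%. Figures were drawn with matplotlib 3.10.9, and tables were made with numpy 2.4.6 and pandas 2.3.3 under Python 3.11.15. The fit was tested on simulated data.

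The 7 genes and all lists were chosen with earlier results of these data known. From each list up to 3 called genes per direction and comparison, those with the largest differences, were named. Alternatives covered centring, a filter on dim probe sets, 1 probe set a gene, variance model, array weights, samples in the fit, strain, replicate block and each sample left out. Averaging arrays whose difference had an SD under 0.205 (cultures 1 and 2, 30-day samples 2 and 3, and 4 and 5, and both newborn samples) was added after the data had been seen, as was the comparison of strain-matched effects. Promoter sequences are RefSeq's, over windows of 300 bases, and matched 7 of 7 genes.

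Replicate numbers recur across groups. Deviations of same-numbered samples correlated between -0.28 and 0.05 for culture and 30-day skin. With newborn skin they were 0.20 and -0.16 for culture and 0.05 and 0.08 for 30-day skin. So few correlations of centred values cannot settle whether the numbers pair samples. No pairing was assumed outside the replicate block.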

Additional observations from a re-analysis of the deposited data

Results flagged for a closer look

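Cultures and 30-day skin made 28 groups of 5 samples among the member probe sets. Chance gives a sample far from the others in about 1 in 20 groups, and groups on the same arrays are not independent. Such a sample was found in 2 of the 28, a share near that of chance. Both were replicate 1 of 30-day skin. It read 6.14 for the Cldn1 probe set 1450014_at, where the other 4 samples read 7.79 to 8.17, and 6.92 for the Cldn3 probe set 1451701_x_at, where they read 7.73 to 7.98. The same sample had an actin 3′ minus 5′ gap of 1.74, the widest of the 12 arrays, and its part in these values was not tested.

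The difference between culture and skin depended on which of the 2 ages of skin was used for 3 genes. The same cultures, all from newborn mice, stand on both sides, so this repeats the comparison of ages given above. Culture minus newborn skin less culture minus 30-day skin, which equals the difference between the ages, was 1.13 for Cldn4 (adjusted p = 0.0206, limma), 0.44 for Cldn1 (adjusted p = 0.0306) and 0.41 for Ocln (adjusted p = 0.0207). Age and strain cannot be told apart in these, and all 3 calls were lost without either newborn sample.

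The strain-matched effects of culture differed for Cldn3, by 1.02 for the leading probe set and by 1.34 for 1426332_a_at (adjusted p = 0.0225 and 0.00891), with the mixed-strain side larger. The other 2 Cldn3 probe sets gave 0.99 and 0.85 (adjusted p = 0.0783 and 0.0642).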

How the results depend on the processing

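Across the alternatives the calls of Cldn4, Cldn7 and F11r in culture against either age of skin, and of Cldn3 against 30-day skin, held in every setting tried. In this section a share of probe sets given without a direction counts calls in both directions. Centring on the keratinocyte panel gave 2 members called lower against 30-day skin, where 38.8% of probe sets were. It gave 3 higher against newborn skin, where 6.35% of probe sets were higher and 46.7% lower (53.1% either way). It gave 1 higher between the ages, where 2.36% were, and 66.7% of probe sets called for FVB culture against newborn skin. For mixed-strain against FVB culture it gave 3 members higher, where 15.1% of probe sets were (16.9% either way). It reversed Tjp1 (-0.0194, and -0.29 for FVB cultures), Cldn1 (-0.10 and -0.15) and Ocln (-0.13 and -0.22) against newborn skin, Cldn3 between ages (-0.045), Cldn1 (0.14) and Ocln (0.22) between kinds of culture, and Cldn4 (0.0189) and F11r (0.13) in the strain-matched difference. With close arrays averaged, where the lone newborn sample is assumed to vary like the other groups, 3 members were higher against newborn skin (17.8% of probe sets), 0 between ages (1.9%) and 0 between kinds of culture (0.716%), with 20.6% of probe sets for mixed-strain culture against 30-day skin and 20.0% for FVB culture against newborn skin. Strain as a covariate, which turns the age comparison into the strain-matched difference, gave 0 members higher and 1 lower between ages and reversed Cldn3 (-1.02, -1.34, -0.99 and -0.85 over its probe sets) and Cldn1 1450014_at (-0.15). The replicate block gave 0 members and 7.62% of probe sets between ages, with Tjp1 at 0.0265, and Ocln no longer passed against newborn skin (adjusted p = 0.134). Array weights raised the age calls to 22.8% of probe sets and those between kinds of culture to 21.9%, with 3 members. Between kinds of culture 3 members (14.6% of probe sets) were called with only those groups in the fit, and 2 without the dimmest 40% of probe sets or with 1 probe set a gene. Leaving out 1 sample gave 39.8% to 43.2% of probe sets and 5 members higher against 30-day skin, 21.3% to 31.9% and 3 to 5 against newborn skin, 3.7% to 15.01% and 0 to 4 between ages, 25.2% to 39.3% and 5 for mixed-strain culture against 30-day skin, 24.5% to 34.2% and 4 to 5 for FVB culture against newborn skin, and 1.88% to 8.41% and 1 between kinds of culture. It reversed Cldn1 1450014_at in culture against 30-day skin (-0.0536 to 0.45), Tjp1 (-0.23 to 0.10) and Cldn3 1426332_a_at (-0.0227 to 0.42) between ages and Ocln between kinds of culture (-0.0703 to 0.10). Where a call changed the cause was not tested. The sources held RMA values only, so no other background correction was run, and with 2 newborn samples the age comparison has the least precision.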
